A study of Homo sapiens with 6 samples.

Results

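The cadherins and protocadherins of WM164 human melanoma cells were compared between cells that carried a tethered MAFG and MITF dimer (T-MGM) and cells that carried green fluorescent protein (GFP). Members were all protein-coding genes whose symbol begins with CDH and a digit, is CDHR1 to CDHR5, or begins with PCDH. The rule used names alone and found 94 members among 58870 genes, of which 19986 were protein-coding. They comprised 5 type I and 13 type II classical cadherins, the GPI-anchored CDH13, the 2 7D cadherins CDH16 and CDH17, 3 other cadherins, 5 cadherin-related genes, 5 delta-1 and 5 delta-2 protocadherins, 2 further non-clustered protocadherins, and the clustered protocadherins with 15 alpha, 16 beta and 22 gamma genes.

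WM164 is an established melanoma line, and all 6 libraries came from it: 3 labelled GFP and 3 labelled T-MGM, with no treatment or time course. Both constructs were carried by a lentiviral vector with the EF1α promoter, which is active in most cell types, and blasticidin resistance. In the T-MGM construct the melanocyte isoform of MITF is followed by a flexible linker and MAFG. Cells were grown in serum-supplemented RPMI, and nothing in the labels says that the replicates were separate cultures, so the p-values measure only the spread between these libraries, which may be technical.

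Cadherins are calcium-dependent adhesion proteins. Classical cadherins bind the same or related cadherins on the next cell and hold the actin cytoskeleton through beta-catenin and alpha-catenin. E-cadherin (CDH1) ties melanocytes to keratinocytes, and its replacement by N-cadherin (CDH2) in melanoma is a textbook case of cadherin switching. Protocadherins lack the catenin-binding tail. The clustered protocadherins lie in tandem on chromosome 5, each variable exon has its own promoter, and in neurons different cells use different promoters, which gives each cell its own surface identity. CTCF and cohesin bind at these promoters and at distant enhancers, and SMCHD1 and SETDB1 are among the factors known to keep the clusters silent.

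The libraries held 35057239 to 38738065 counted reads in GFP and 44577774 to 59250663 in T-MGM. Correlations of log2 normalized counts across genes were 0.991 to 0.994 within the groups and 0.971 to 0.974 between them. MITF had 19111, 19169 and 19204 normalized counts in the GFP libraries against 20447, 20121 and 20240 in the T-MGM libraries, a 1.06-fold difference (adjusted p = 4.80e-07), and MAFG had 2535, 2397 and 2442 against 2396, 2351 and 2327 (0.96-fold, adjusted p = 0.236). The counts of the genes joined in the construct therefore did not mark the T-MGM libraries by a large increase. Whether reads of the construct were counted under these genes is not known, so the values do not measure its expression, and the grouping rests on the labels. Of 8 melanocytic markers 7 were well detected, with SOX10 and PMEL highest and TYRP1 near 0. Among them SOX10, PMEL and MITF rose by at most 1.08-fold, while DCT fell to 0.179-fold, MLANA to 0.626-fold, TYR to 0.787-fold and S100B to 0.863-fold, and the part of this shift in the results below was not tested. Of 5 fibroblast markers LUM, COL1A1 and PDGFRA were higher in T-MGM, DCN stayed under 11 normalized counts in every library and COL3A1 was near 0, with summed levels of 3.81 to 4.83 TPM, the deposited measure per transcript length, in GFP and 5.34 to 6.69 in T-MGM. No keratinocyte, endothelial or leukocyte marker passed the test, and their part and that of the fibroblast markers in the results below was not tested.

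Genes were tested with DESeq2 over the whole table, 2-sided, with p-values adjusted over the 19135 genes that received one. A gene was said to have risen or fallen when its adjusted p was at or under 0.05, and was counted over 2-fold when the log2 fold change of T-MGM over GFP also exceeded 1 in size. In all, 7 members were at 0 in every library, another 14 never exceeded 3 counts in a library, and 73 had more in at least 1. The test gave an adjusted p to 63 members. Of these 24 rose and 3 fell, against a background over all tested genes of 19.2% higher and 19.2% lower. Over 2-fold, 15 rose and 0 fell, where the background was 3.26% higher and 1.36% lower. Among tested members the 3 values of each group stood apart in 24 that were higher and 7 that were lower, with a background of 23.4% in the higher and 23.4% in the lower direction. The median log2 fold change of the 63 members was 0.51, and that of all tested genes was -0.0027. Of the 15 members over 2-fold, 13 were clustered protocadherins. With shrunken fold changes 2 of the 15 stayed over 2-fold, PCDHB16 and PCDHGA12, with the adjusted p-values as before. On log2(TPM + 1), where 16 members passed the filter on low values, 7 rose and 3 fell and none passed over 2-fold. In bulk RNA a change in the number of cells that express a gene and a change in RNA per cell cannot be told apart.

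**Figure D1:**
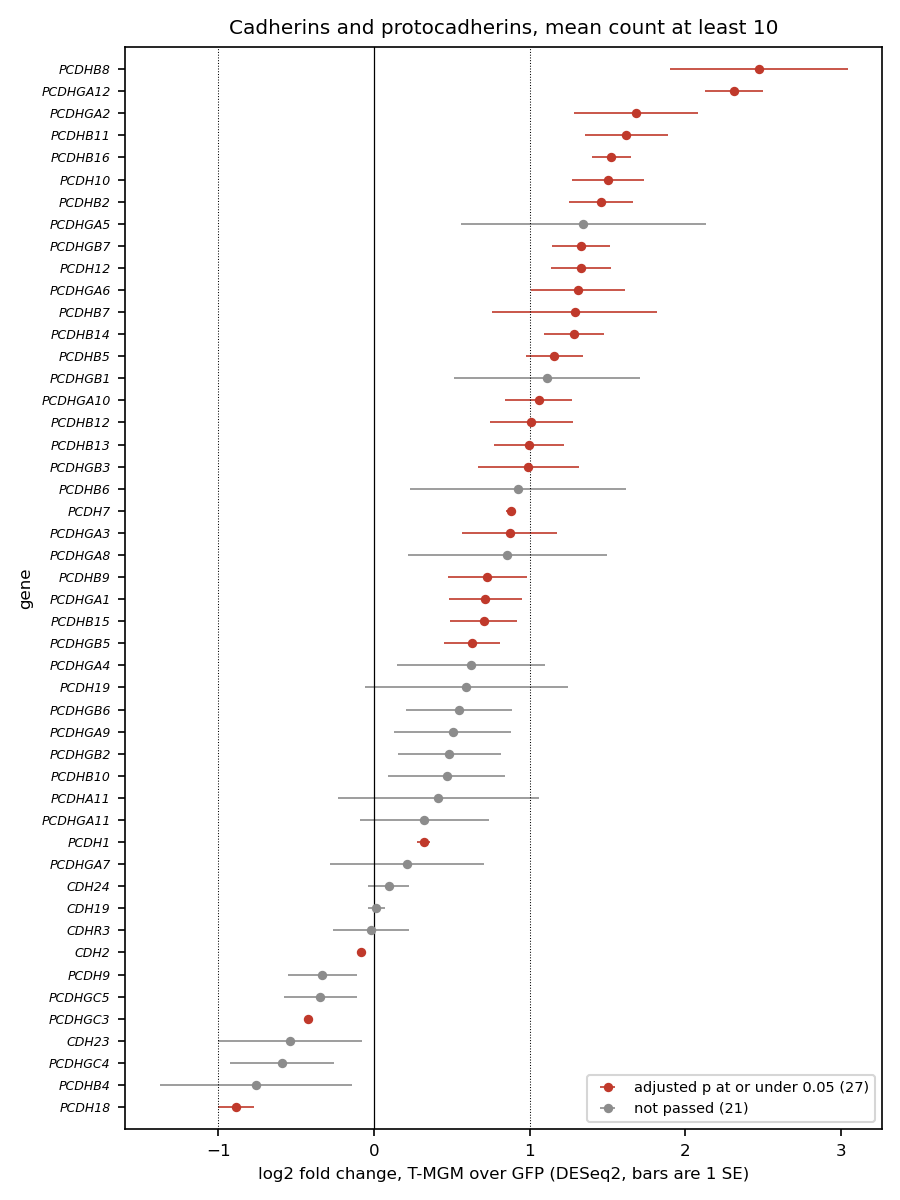
Log2 fold change of T-MGM over GFP for the 48 members whose normalized counts averaged 10 or more, with bars of 1 standard error from DESeq2. Red points passed an adjusted p of 0.05 (27 members), grey points did not (21), and dotted lines mark 2-fold; the upper part is made up mostly of beta and gamma protocadherins, and PCDH18 is the lowest.

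The beta cluster rose. Summed over its 16 genes, the GFP libraries had 707, 688 and 698 normalized counts and the T-MGM libraries 1577, 1562 and 1602. All T-MGM libraries were above all GFP libraries, with little spread in either group. The sum was 2.27-fold higher (95% interval 2.10 to 2.45, log2 fold change 1.18, SE 0.058, adjusted p = 8.24e-91, DESeq2). Of 15 beta genes with an adjusted p, 11 rose, 8 of them over 2-fold, and 0 fell. The background over all tested genes was 19.2% higher and 19.2% lower, and 3.26% higher over 2-fold. In summed TPM, a measure per transcript length, the beta genes went from 4.52 to 4.70 in GFP to 8.37 to 9.48 in T-MGM.

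The promoters of the clusters carry a related sequence element, shown here for genes that rose and genes that did not pass. Of the 94 members, 74 have a window of 300 bases (250 before the start to 50 after) in the RefSeq promoter table of GRCh38.p14. Lines below give 26 bases, 5′ to 3′ on the plus strand, with the core CGCT in capitals. The beta genes PCDHB16, PCDHB2, PCDHB14 and PCDHB5 rose over 2-fold and PCDHB3 and PCDHB4 did not pass.
PCDHB16 (chr5:141182314-141182339): aacgcgtggtggCGCTgcaggttaag
PCDHB2 (chr5:141094548-141094573): gacgcggggtggCGCTgcagccttag
PCDHB14 (chr5:141223267-141223292): gacacatggtggCGCTacaggataag
PCDHB5 (chr5:141135183-141135208): gacgcctggtggCGCTgcaggctaag
PCDHB3 (chr5:141100397-141100422): aacgcatggtggCGCTgttgactaag
PCDHB4 (chr5:141121727-141121752): gacgcagggtggCGCTgcaggctaag
The core began 55, 61, 64 and 11 bases before the annotated start of PCDHB2, PCDHB16, PCDHB14 and PCDHB5, and 64 and 79 bases before that of PCDHB3 and PCDHB4. The 12 letters GGTGGCGCTGCA were the run with CGCT that most beta promoters shared, in 10 of 14 windows, and were found in 15 of all 35116 promoter windows on either strand (0.0427%). CGCT alone was in 70.01% of all windows. The 12 letters are intact in PCDHB4, which did not pass on 6 to 22 reads, and differ in PCDHB14, which rose. Whether the letters go with the change in these genes was not tested.

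**Figure D2:**
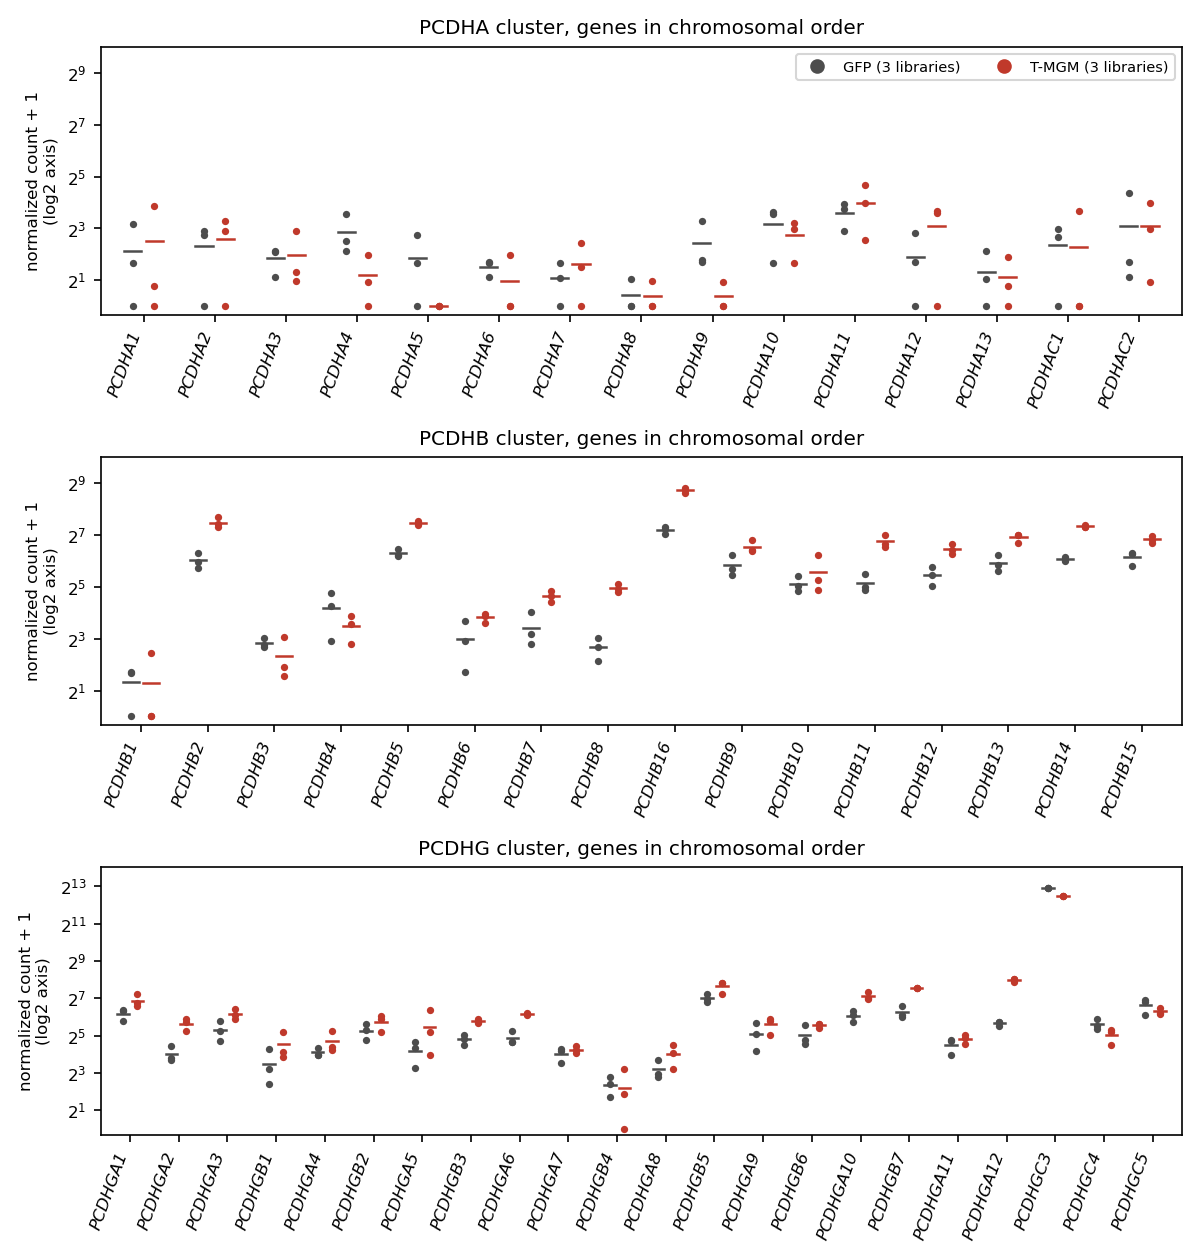
Normalized counts plus 1 on a log2 axis for each clustered protocadherin, in chromosomal order, with 1 point for each library, a short line at the group mean, GFP in grey and T-MGM in red. Alpha genes lie near the bottom in both groups, most beta genes are higher in T-MGM, and PCDHGC3 stands far above the other gamma genes and is lower in T-MGM.

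PCDHB16 was the most highly counted beta gene, with 158, 131 and 151 normalized counts in GFP, against 393, 444 and 427 in T-MGM. The groups were far apart. The increase was 2.88-fold (95% interval 2.42 to 3.42, adjusted p = 4.57e-32). PCDHB2 had 61.2, 79.0 and 52.5 against 206, 170 and 156 (2.75-fold, adjusted p = 9.09e-12). Both have a partly overlapping transcript on the other strand in the annotation. So have PCDHB5 (501 bases), PCDHB7 (255 bases) and PCDHB11 (131 bases), which also rose. The same holds for PCDHB3 (393 bases), PCDHB6 (59 bases) and PCDHB10 (45 bases), which did not pass, and PCDHB1 (101 bases), without an adjusted p. Reads of these partners cannot be told apart where counting ignores strand. PCDHB15, PCDHB9, PCDHB8, PCDHB16 and PCDHB14, which rose, share 379, 337, 221, 186 and 169 exon bases with another gene on the same strand.

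The next group of beta genes moved by like amounts. PCDHB14 had 70.8, 62.8 and 64.0 normalized counts in GFP, against 158, 156 and 166 in T-MGM (2.43-fold). PCDHB5 had 74.3, 71.5 and 88.0 against 173, 183 and 166 (2.23-fold). PCDHB11 had 28.8, 44.4 and 30.8 against 93.1, 99.5 and 128 (3.08-fold). In each of these genes the lowest T-MGM library was above the highest GFP library. Their adjusted p-values from DESeq2 were 1.91e-10, 1.55e-09 and 9.32e-09.

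PCDHB8 had the largest fold change of the cluster on low counts, with 6, 5 and 3 reads in GFP, against 32, 34 and 36 in T-MGM (5.55-fold, 95% interval 2.56 to 12.1, adjusted p = 6.86e-05). Of its 100-base stretches, 29.8% also occur in other genes, so part of its reads may be assigned elsewhere or lost as multiply mapped. PCDHB12 rose 2.02-fold (adjusted p = 0.000606) and PCDHB7 2.45-fold (adjusted p = 0.0400), the latter on 5 to 14 reads in GFP and 22 to 37 in T-MGM. PCDHB7 lost its call in 5 of the 6 fits that left out 1 library, all except the one without GFP replicate 2, with adjusted p-values of 0.0716 to 0.16. PCDHB13 rose 1.99-fold, PCDHB9 1.66-fold and PCDHB15 1.63-fold, with adjusted p-values of 5.40e-05, 0.0132 and 0.00391. Leaving out GFP replicate 1, GFP replicate 2 or T-MGM replicate 3 ended the call of PCDHB9 (adjusted p = 0.0655, 0.111 and 0.136), and leaving out GFP replicate 2 that of PCDHB15 (adjusted p = 0.0575).

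The beta genes that did not pass were PCDHB3, PCDHB4, PCDHB6 and PCDHB10. PCDHB3 had 2 to 10 reads in each library, PCDHB4 6 to 22 and PCDHB6 2 to 15. PCDHB10 had 27.6, 31.4 and 42.3 normalized counts in GFP, against 74.8, 37.1 and 28.8 in T-MGM, and the groups overlapped (adjusted p = 0.369). PCDHB1 had at most 6 reads and no adjusted p.

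The gamma cluster moved in opposite directions in its parts. Each gamma gene joins its own variable exon to 3 constant exons that all 22 share, so each protein has its own outside and the same end of the tail. The first constant coding exon, at chr5:141494807-141494865 (GRCh38, plus strand, 59 bases, GENCODE 44), is part of every gamma transcript that reads through, and reads in it fit all 22 genes. It is printed beside the matching exon of the alpha cluster (chr5:140978949-140979007), which all 15 alpha genes share.
gamma constant exon: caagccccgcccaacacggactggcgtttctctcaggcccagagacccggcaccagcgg
alpha constant exon: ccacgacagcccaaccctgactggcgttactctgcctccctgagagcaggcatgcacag
In this annotation 2177 exon bases of each gamma gene are shared with the 21 others. How reads in them were assigned is not stated, and for that reason each cluster was also tested as 1 sum.

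PCDHGC3, the first of the C-type gamma genes, which neurons express without the choice of promoters seen in the rest of the cluster, carried most of the gamma reads. It had 7621, 7616 and 7535 normalized counts in GFP, against 5651, 5649 and 5663 in T-MGM. The groups did not overlap and each was tight. It fell to 0.745-fold (95% interval 0.722 to 0.769, log2 fold change -0.42, SE 0.023, adjusted p = 3.66e-74). Its share of gamma counts was 89.8%, 90.8% and 89.5% in GFP, against 78.5%, 78.1% and 79.0% in T-MGM, and on the TPM scale it went from 91.1% to 91.6% down to 82.1% to 83.1%. PCDHGC5 had 120, 68.2 and 109 normalized counts against 88.5, 73.2 and 71.6 (adjusted p = 0.266), and PCDHGC4 had 45.6, 40.1 and 58.3 against 21.9, 38.1 and 35.4 (adjusted p = 0.163).

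The A-type and B-type gamma genes went the other way. Of 12 PCDHGA genes 6 rose, and of 7 PCDHGB genes 3 rose, with 0 falls in either type. Among these 9, 5 were over 2-fold. Over all tested genes 19.2% rose and 19.2% fell, and 3.26% rose over 2-fold. PCDHGA12, the last of the A-type genes, had 52.8, 53.1 and 44.5 normalized counts in GFP, against 256, 258 and 236 in T-MGM. The groups were far apart. It rose 4.98-fold (95% interval 3.87 to 6.42, log2 fold change 2.32, SE 0.186, adjusted p = 4.05e-34).

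PCDHGB7 had 93.5, 68.2 and 62.8 normalized counts in GFP, against 187, 189 and 187 in T-MGM (2.52-fold, adjusted p = 7.69e-12). PCDHGA2 had 13.2, 11.9 and 20.6 against 37.4, 57.6 and 51.7 (3.21-fold, adjusted p = 9.36e-05). PCDHGA6 had 37.2, 23.8 and 24.0 against 66.6, 73.2 and 70.1 (2.48-fold, adjusted p = 6.89e-05). In all of these T-MGM was above GFP in every library. PCDHGA10 rose 2.08-fold from 66.3 ± 12.8 to 139 ± 21.3 (SD, n = 3 each, adjusted p = 4.39e-06, DESeq2). Under 2-fold, PCDHGB3 rose 1.99-fold, PCDHGA3 1.83-fold, PCDHGA1 1.64-fold and PCDHGB5 1.55-fold, with adjusted p-values of 0.00702, 0.0125, 0.00754 and 0.00199. The call of PCDHGA3 was lost without GFP replicate 2, GFP replicate 3 or T-MGM replicate 3 (adjusted p = 0.053, 0.115 and 0.122), that of PCDHGB3 without GFP replicate 2 or T-MGM replicate 3 (0.0582 and 0.0521) and that of PCDHGA1 without GFP replicate 2 or T-MGM replicate 1 (0.0877 and 0.149). PCDHGB5 lost its call on every TPM scale, with 0.7, 0.67 and 0.68 TPM in GFP against 1.02, 1 and 0.67 in T-MGM. The remaining 10 A-type and B-type genes did not pass.

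The gamma sum, which PCDHGC3 dominates, fell from 8482, 8391 and 8421 normalized counts to 7201, 7231 and 7168, or 0.854-fold (95% interval 0.829 to 0.879, adjusted p = 3.80e-25). Left out of the sum, which was done after the values were seen, PCDHGC3 leaves 862, 776 and 887 normalized counts in GFP, against 1549, 1581 and 1504 in T-MGM. That remainder was 1.84-fold higher (95% interval 1.69 to 1.99, adjusted p = 8.66e-48). Unlike the whole sum, it depends on how reads in the shared exons were split between PCDHGC3 and the other genes. So does the share of PCDHGC3. In summed TPM the whole gamma cluster went from 51.3 to 52.0 in GFP down to 38.3 to 41.4 in T-MGM.

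**Figure D3:**
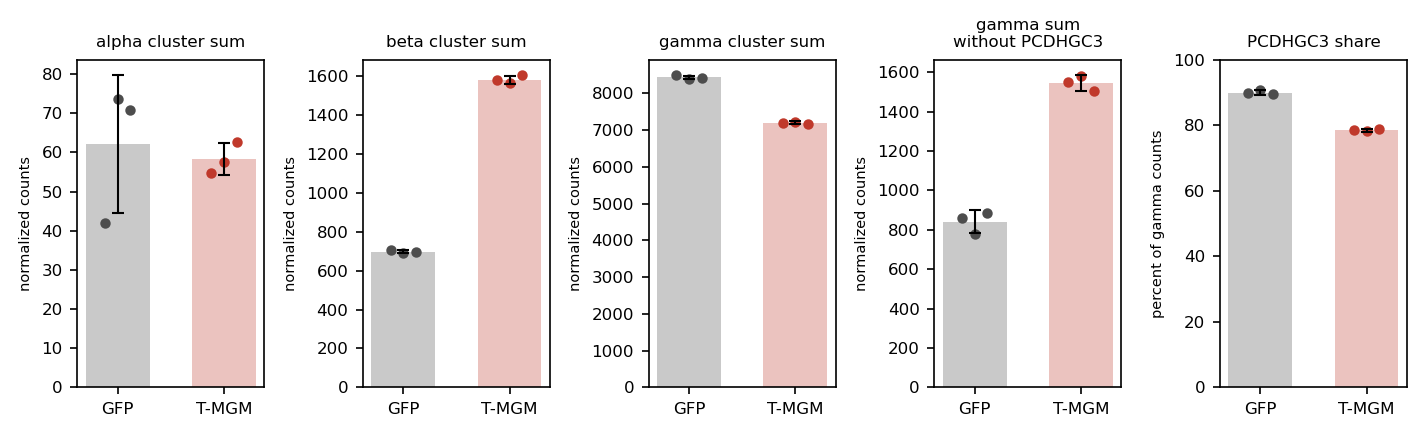
Normalized counts summed over each protocadherin cluster and the share of PCDHGC3 in the gamma counts, with a point for each library, a bar at the mean and a line of 1 SD (n = 3). The beta sum and the gamma sum without PCDHGC3 are higher in T-MGM, the whole gamma sum and the share of PCDHGC3 are lower, and the alpha sums overlap.

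CGCT was found on either strand in all 25 gamma windows, before genes that rose and before C-type genes alike. It was also in 70.01% of all promoter windows. Whether its presence goes with the change was not tested. The following windows are from GRCh38.p14, plus strand, CGCT in capitals. PCDHGA2 and PCDHGA10 rose over 2-fold, PCDHGC3 fell and PCDHGC4 did not pass.
PCDHGA2 (chr5:141338707-141338732): gcctctgagcgtCGCTgttgaccacc
PCDHGA10 (chr5:141412935-141412960): gactctgagcgcCGCTgttcacctac
PCDHGC3 (chr5:141475884-141475909): gactctgtgtgcCGCTgtcggccaat
PCDHGC4 (chr5:141484956-141484981): gagcccgggagcCGCTgtctgccaat
The core began 41, 40, 70 and 62 bases before these starts. The gamma promoters shared less than the beta promoters: their most common run of 12 letters with CGCT, GGGCGCCGCTGT, was found in 5 of 20 gamma genes and in 13 of all 35116 windows. In the first window listed for PCDHGB7, which rose over 2-fold, the best plus-strand match was at 6 of 12 letters. Only the first window of each gene was scored for such matches. PCDHGA12 and PCDHGC5 have no window in the promoter table.

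The alpha cluster had few reads. Its sum was 42.0, 73.6 and 70.8 normalized counts in GFP, against 54.8, 57.6 and 62.7 in T-MGM, over 15 genes. The groups overlapped, and the log2 fold change was -0.09 (SE 0.271, adjusted p = 0.845, interval of the fold 0.649 to 1.36). None of the 9 alpha genes with an adjusted p passed, and 3 of the 15 never exceeded 3 reads. The alpha promoters hold their own form of the element, of which 2 are shown.
PCDHA1 (chr5:140786090-140786115): gccacatgatgtCGCTgtacaccaca
PCDHA4 (chr5:140806983-140807008): gccacatgatgtCGCTctttaccaca
The 12 letters CATGATGTCGCT occurred in 8 of 13 alpha windows and in 8 of all 35116 windows.

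MITF binds the E-boxes CACGTG and CATGTG, and small MAF proteins bind half-sites that contain TGCTGA. Searched on both strands of the 95 windows of members, CACGTG was in 3 (3.16%, against 7.26% of all windows), CATGTG in 10 (10.5% against 11.1%) and TGCTGA in 16 (16.8% against 17.3%). Of the 14 beta windows 0 held CACGTG, 2 held CATGTG and 1 held TGCTGA, and of the 25 gamma windows 0 held CACGTG, 0 held CATGTG and 2 held TGCTGA. Of the 13 alpha windows 3 held CACGTG (23.1%), 3 held TGCTGA (23.1%) and 7 held CATGTG (53.9%), which on the other strand reads CACATG and is part of the alpha element as it stands in PCDHA1 and PCDHA4. A match is a description of letters in these windows and no evidence of binding.

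Genes around the clusters were compared with them. Within 2 Mb on either side, 41 protein-coding genes that are not members averaged 50 or more normalized counts. They had a median log2 fold change of 0.04, between -0.47 and 0.64, and none passed over 2-fold in either direction. The members PCDH1 and PCDH12, which lie within the same distance and were left out, rose 1.25-fold and 2.52-fold. TAF7, a subunit of the general transcription factor TFIID, lies between the beta and gamma clusters and had 4166, 4227 and 4048 normalized counts in GFP, against 4552, 4375 and 4335 in T-MGM, a log2 fold change of 0.09 (adjusted p = 0.00840). This comparison with neighbours was chosen after the values were seen.

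**Figure D4:**
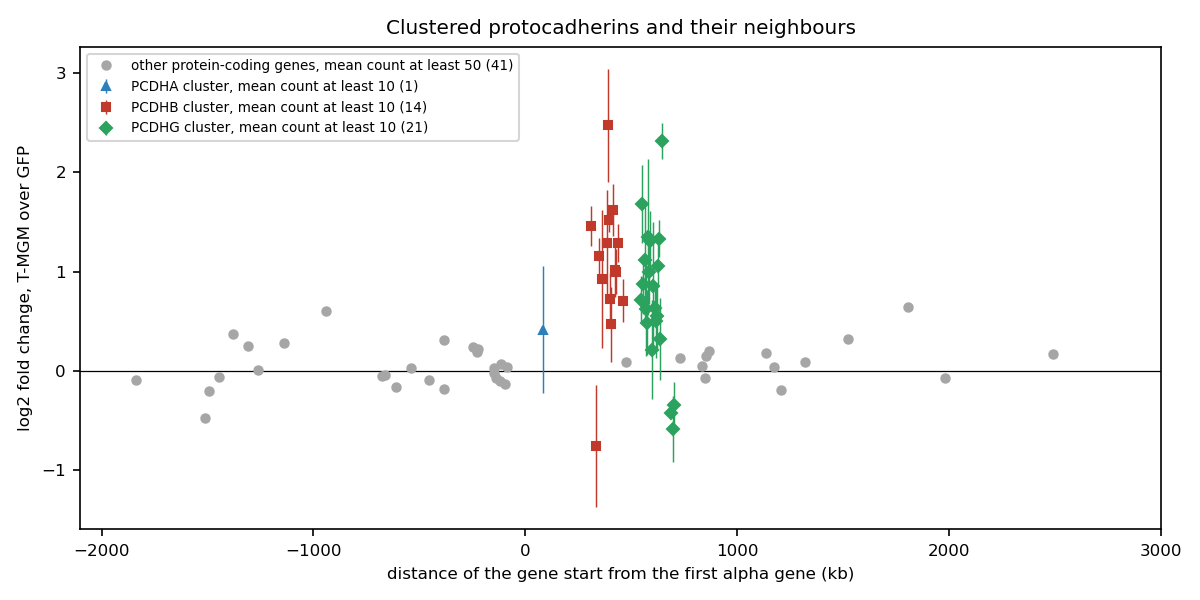
Log2 fold change of T-MGM over GFP against the distance of each gene's start from the first alpha gene, for clustered protocadherins with a mean count of at least 10 (bars are 1 SE) and the 41 other protein-coding genes within 2 Mb. The neighbours lie between -0.47 and 0.64, while beta genes and the A-type and B-type gamma genes lie mostly above and the C-type gamma genes below 0.

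Among the non-clustered delta-1 protocadherins PCDH7 rose most clearly. PCDH7 (chr4:30720369-31146805, plus strand), which can bind protein phosphatase 1 through its tail, had 3823, 3908 and 4040.0 normalized counts in GFP, against 7181, 7282 and 7186 in T-MGM. The groups were far apart, with little spread. The increase was 1.84-fold (95% interval 1.77 to 1.91, log2 fold change 0.88, SE 0.027, adjusted p = 6.38e-233), and its TPM went from 18.5, 18.8 and 20.5 to 32.5, 31.5 and 30.8. An antisense transcript overlaps 1602 of its exon bases in the annotation. PCDH1, an epithelial and endothelial adhesion protein, rose 1.25-fold, from 2272, 2281 and 2336 to 2711, 3060 and 2832 (adjusted p = 7.23e-13). It did not pass on any TPM scale, with 11.8, 12.57 and 12.51 TPM in GFP against 13.1, 14.51 and 13.5 in T-MGM. PCDH9 had 80.3, 88.8 and 98.2 against 75.7, 73.2 and 64.2, with no overlap but an adjusted p of 0.255. PCDH11X had at most 2 reads in a library.

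The delta-2 protocadherins were split. PCDH10, which recruits actin regulators to cell contacts, had 32.4, 48.7 and 51.4 normalized counts in GFP, against 129, 125 and 124 in T-MGM. Every T-MGM library exceeded every GFP library. It rose 2.84-fold (95% interval 2.07 to 3.90, adjusted p = 7.95e-10). PCDH18 fell to 0.542-fold, from 456, 544 and 417 to 238, 278 and 252 (95% interval 0.463 to 0.634, adjusted p = 1.94e-13), again with no overlap. PCDH17 and PCDH19 had at most 6 and 16 reads and did not pass. PCDH8 was at 0 in all GFP libraries and had 6, 5 and 0 reads in T-MGM, without an adjusted p.

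PCDH12, a protocadherin best known in endothelium, had 57.6, 62.8 and 76.5 normalized counts in GFP, against 156, 175 and 165 in T-MGM, and the groups did not overlap. It rose 2.52-fold (95% interval 1.93 to 3.28, adjusted p = 6.58e-11). It lies near PCDH1 on chromosome 5 (chr5:141943581-141969741, minus strand). PECAM1 and VWF, the defining endothelial markers, were at 4.8 to 30.2 normalized counts and did not pass.

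N-cadherin was the principal classical cadherin. CDH2 (chr18:27932879-28177946, minus strand) had 5432, 5506 and 5604 normalized counts in GFP, against 5177, 5265 and 5206 in T-MGM. The groups did not overlap but lay close. The difference was 0.946-fold (95% interval 0.913 to 0.980, log2 fold change -0.08, SE 0.026, adjusted p = 0.00613). It was lost when GC content and transcript length were corrected for (log2 fold change -0.01, adjusted p = 0.846) and without GFP replicate 3 (adjusted p = 0.0706). All 19 protein-coding genes within 5 Mb of CDH2 that averaged 50 or more normalized counts had negative log2 fold changes, with a median of -0.43. The same median was -0.28 around CDH19 (13 genes, 2 positive), -0.26 around PCDH10 (6 genes, 1 positive), 0.19 around PCDH7 (6 genes, 4 positive), 0.01 around PCDH18 (15 genes, 8 positive) and 0.02 around PCDH1 and PCDH12 (60 genes each, 34 positive). This comparison left out all members and was made after the values were seen.

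CDH19, a type II cadherin of the neural crest and Schwann cell lineage, had 1191, 1204 and 1261 normalized counts in GFP, against 1286, 1193 and 1215 in T-MGM. The groups overlapped, and the fold was 1.01 (95% interval 0.938 to 1.09, adjusted p = 0.875). With the correction for GC content and length its log2 fold change was 0.20 (adjusted p = 0.000951). CDH24, another type II cadherin, had 242, 210 and 233 against 237, 221 and 271 (adjusted p = 0.641), and the cadherin-related CDHR3, known as the receptor of a group of rhinoviruses, had 64.8, 59.6 and 66.2 against 61.1, 66.3 and 60.5 (adjusted p = 0.964).

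The other cadherins followed in melanoma had few or no reads in either group. E-cadherin (CDH1) had 3, 0 and 3 reads in GFP and 0 in every T-MGM library, and P-cadherin (CDH3), VE-cadherin (CDH5) and CDH11 never exceeded 3 reads. R-cadherin (CDH4) had 1, 5 and 1 reads in GFP and 0 in every T-MGM library, M-cadherin (CDH15) at most 4 and CDH6 at most 6. H-cadherin (CDH13), which is held in the membrane by a lipid anchor, had 7, 7 and 5 reads against 6, 2 and 2 (adjusted p = 0.323). Of these genes only CDH6 and CDH13 had an adjusted p, and neither passed. CDH9, CDH10, CDH16, CDH20, CDHR4 and CDHR5 were at 0 in every library.

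**Figure D5:**
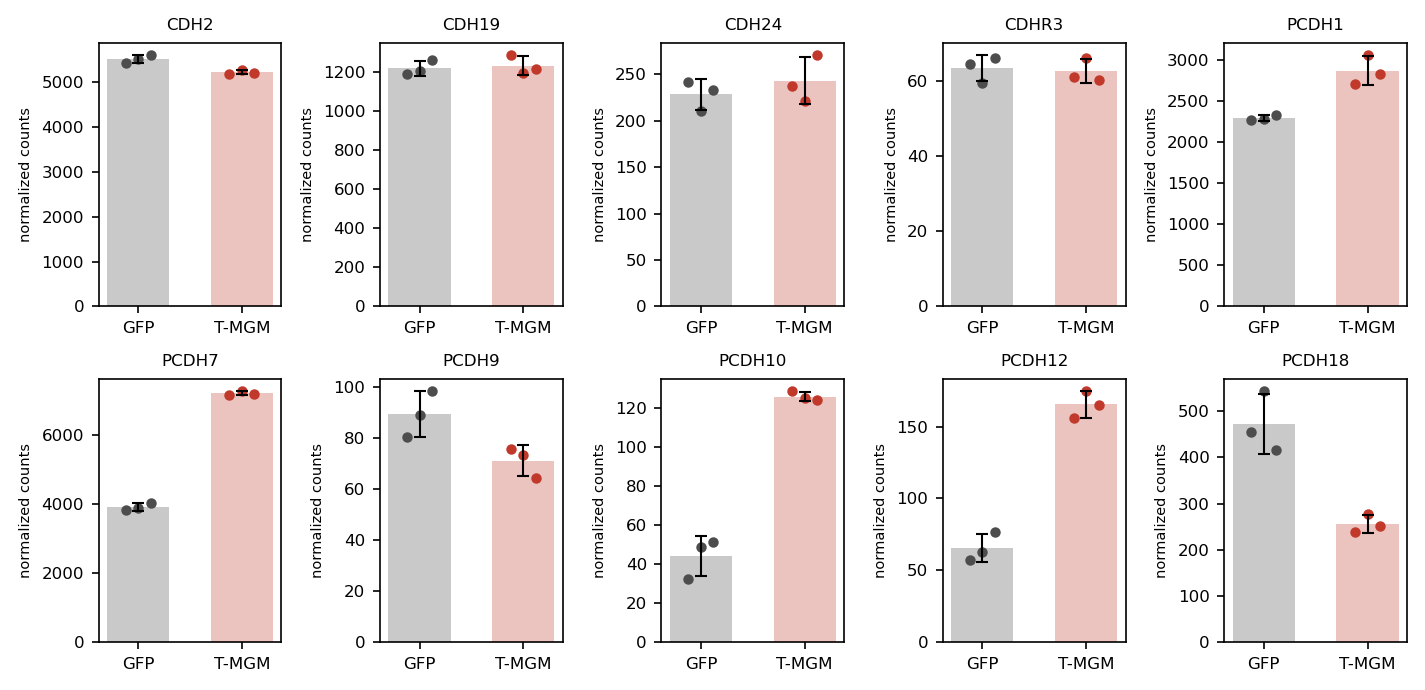
Normalized counts of 10 members outside the clusters, with a point for each library, a bar at the mean and a line of 1 SD (n = 3 each). PCDH7, PCDH10 and PCDH12 are higher in T-MGM without overlap, PCDH18 is lower, and CDH19, CDH24 and CDHR3 overlap.

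Genes that work with cadherins were taken from 4 lists, of which 67 genes were found and 52 had an adjusted p. Of these 52, 13 rose and 17 fell, where the background over all tested genes was 19.2% in each direction. Nothing particular to the lists is read from these counts or from those of the single lists below, which have the same background. Beta-catenin (CTNNB1) had 16130.0, 16366 and 16049 normalized counts in GFP, against 16664, 16094 and 16575 in T-MGM (adjusted p = 0.329). Alpha-catenin (CTNNA1) fell to 0.878-fold (adjusted p = 0.0206) and p120-catenin (CTNND1), which stabilizes cadherins at the membrane, rose 1.05-fold (adjusted p = 0.00904). Plakoglobin (JUP), the desmosomal relative of beta-catenin, had 21.6, 4.3 and 26.3 against 42.0, 36.1 and 53.1 and rose 2.54-fold (adjusted p = 0.00841). PTPRF, a receptor phosphatase of cell contacts, rose 2.22-fold, from 1206, 1147 and 1300 to 2818, 2679 and 2608 (adjusted p = 1.73e-118). Of the 23 catenins and adaptors 19 had an adjusted p, 5 rose and 6 fell.

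Of 19 other genes of the cadherin superfamily 12 had an adjusted p, 4 rose and 0 fell. CELSR2, a planar polarity cadherin, rose 2.02-fold from 518, 507 and 482 to 1001, 1065 and 978 (adjusted p = 3.50e-42). CLSTN3, a calsyntenin, rose 2.40-fold from 45.6, 66.0 and 65.1 to 161, 144 and 122 (adjusted p = 3.99e-08). The others that rose were FAT1, 1.76-fold, and CELSR1, 1.47-fold. All 3 desmocollins of the list never exceeded 4 reads.

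Of 13 regulators of CDH1 transcription and epithelial splicing 9 had an adjusted p, 1 rose and 5 fell. The one that rose was TWIST1, a repressor of CDH1, at 1.30-fold (adjusted p = 5.40e-07). SNAI2, another repressor, fell to 0.673-fold (adjusted p = 1.31e-45), ZEB1 to 0.880-fold (adjusted p = 0.000771) and ZEB2 to 0.868-fold (adjusted p = 1.83e-17), while CDH1 itself stayed near 0. All 12 regulators of the clustered protocadherin loci had an adjusted p, 3 rose and 6 fell. The insulator protein CTCF rose 1.06-fold (adjusted p = 0.00364). RAD21 and STAG1 rose 1.04-fold and 1.07-fold. STAG2, DNMT3B, WAPL and SMC3 fell to 0.784-fold, 0.824-fold, 0.857-fold and 0.884-fold. The silencing factors SETDB1 and SMCHD1 fell to 0.690-fold and 0.807-fold, with 1200.4, 1240 and 1198 normalized counts of SETDB1 in GFP against 849, 829 and 834 in T-MGM and 3901, 4020.1 and 4059 of SMCHD1 against 3282, 3247 and 3148. Their adjusted p-values were 8.04e-19 and 8.76e-21, and their part in the levels of the clusters was not tested.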

How the data were processed

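RNA of WM164 cells (3 GFP and 3 T-MGM libraries) was sequenced by the study. The authors' processing notes name cutadapt 1.8.1, STAR 2.7.7a, RSEM 1.3.0 and GRCh38. The deposited counts are whole reads per gene, which the study's methods ascribe to uniquely aligned reads counted with featureCounts; the deposited TPM values were scaled by the authors for transcript length and depth. The annotation release is not given in the sources used here. The labels and the methods name different library kits, one of them not strand-specific, so whether counting used strand is uncertain.

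The counts as deposited were tested with DESeq2 1.42.0 (R 4.3.3, median-of-ratios scaling, 2-sided Wald test, independent filtering at 0.05, Benjamini-Hochberg over all genes), the tool and threshold that the study names. Normalized counts are counts divided by the size factor. Intervals are 95% Wald intervals. Alternatives were edgeR 4.0.16 quasi-likelihood, limma 3.58.1 with trend on log2(TPM + 1) or log2(TPM + 0.1) (TPM of at least 0.5 in 3 libraries, or no filter), other scalings and filters, the replicate number as a term, lowess offsets for GC content and length, and leaving out each library. DESeq2 with and without the replicate term, edgeR, and limma on filtered log2 values plus 1 were tested on simulated counts. The other settings and the cluster sums were not. Positions and shared exons come from GENCODE 44 on GRCh38, in which all 94 members were found, and promoter windows from RefSeq (GRCh38.p14).

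Named were members with an adjusted p at or under 0.05 and a mean normalized count of at least 10, members with a mean of at least 50, and 10 cadherins followed in melanocytes and melanoma. Among the listed partner genes, those over 2-fold and 8 fixed genes were named, and the other named genes were chosen after their values were seen. The members and lists were chosen with earlier results of these data known. PCDH11Y is counted but its level is not given. Precision follows depth: genes with a few reads carry wide intervals, which cover counting error and the spread between these libraries only.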

Additional observations from a re-analysis of the deposited data

How the results depend on the processing

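Under all fits on counts, 13 to 17 members rose over 2-fold and none fell over 2-fold, except that shrunken fold changes left 2. On log2(TPM + 1) the count was 0 with or without the TPM filter, and on log2(TPM + 0.1) it was 3, PCDHB16 and PCDHGA12 higher and PCDH18 lower; 16 members passed the TPM filter and the added constant shrinks low genes, and the median log2 fold change of all genes was -0.12 on filtered log2(TPM + 1), -0.15 on log2(TPM + 0.1) and -0.02 on unfiltered log2(TPM + 1). Members at adjusted p 0.05 numbered 22 to 28 on counts, 10 on both TPM scales with the filter and 13 without it. PCDH1, PCDHGB5 and PCDHB9 met the TPM filter and still lost their calls on every TPM scale. Among 67 partner genes 19 passed on TPM without the filter, 4 higher and 15 lower. The split of partner calls was 13 higher and 17 lower in the main test, 9 and 21 with total-count scaling, and 5 and 20 on filtered TPM.

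Leaving out 1 library gave 13 to 16 members over 2-fold, 22 to 26 at adjusted p 0.05, and 27 to 31 partner genes. The log2 fold change of the beta sum then ranged from 1.17 to 1.19, that of the gamma sum from -0.23 to -0.22 and that of the alpha sum from -0.31 to 0.0484, which was positive without GFP replicate 2 (0.0484) and without GFP replicate 3 (0.0112). Without PCDHGC3 the gamma sum reversed to 0.88.

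Of 538 values of 34 named members 479 kept their direction and side of the adjusted p threshold, 43 lost the call, 1 gained it and 15 changed sign. A setting whose filter removed a member gave no value for it, and the 2-fold limit was not part of this count. All sign changes were in members that did not pass: CDH19 (-0.0382 with total-count scaling, -0.0011 without GFP replicate 1, -0.0162 without T-MGM replicate 1, up to 0.0418 without other libraries, -0.16 and -0.18 on TPM plus 1 and plus 0.1, -0.16 unfiltered), CDH6 (0.0217 on unfiltered TPM), CDHR3 (-0.0656 to 0.0125 without 1 library, positive without GFP replicate 3 and, at 0.0059, without T-MGM replicate 3, and 0.0119 with GC and length correction), CDH24 (-0.0148, -0.0246 and -0.0148 on the TPM scales and -0.0478 with GC and length correction) and PCDH9 (0.012 on unfiltered TPM). The cause was not tested.

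The replicate numbers were not shown to pair the libraries: deviations of same-numbered libraries correlated at -0.0067, -0.058 and 0.029. With the replicate block 24 members passed, 15 over 2-fold, and 27 partner genes; CDH2, PCDHB7 and PCDHGA3 lost their calls, and the sums were 1.18, -0.23 and -0.06 for beta, gamma and alpha. Depth limits the members with few reads, whose intervals are wide.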
